A study of Mus musculus with 8 samples.

Results

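The Mediator complex is the multisubunit coactivator that carries signals from enhancer-bound factors to RNA polymerase II. Its members were taken as all genes of the array whose single platform symbol is Med with a number (and at most 1 letter) or is Cdk8, Cdk19 or Ccnc, with the brightest probe set standing for a gene. This gave 33 genes with 72 probe sets, of 18193 genes with 34945 single-symbol probe sets on the array. All 33 passed the filter on dim signals, with signals over each array's 40th percentile on all 8 arrays. The blastocysts were wild-type whole embryos of embryonic day 4.5, 120 h after human chorionic gonadotropin (hCG, the hormone given to time ovulation), on 4 arrays. The 8-cell embryos were wild-type whole embryos of day 2.5, 66 h after hCG, also on 4 arrays. Both came from crosses of B6D2F1 mice and had grown in KSOM culture medium from the 1-cell stage, with no treatment. Whether the 4 samples of a stage were separate collections of embryos is not stated in the labels. The p-values therefore cover only the sample-to-sample spread, part of which may be technical.

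Mediator has a head, a middle and a tail, held together by the scaffold MED14, and the head and middle contact the polymerase while the tail meets most activators. A separable kinase module binds the core reversibly and holds it away from the polymerase. It consists of CDK8 or its paralog CDK19, their cyclin C (Ccnc), MED12 or MED12L, and MED13 or MED13L. Mouse embryos without Cdk8 were reported to die before implantation.

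Each difference is the blastocyst mean minus the 8-cell mean of log2(signal + 16), where signal is the array's scaled intensity, followed by its standard error (SE). Genes were tested with limma, p-values were adjusted by Benjamini-Hochberg over all 13274 genes tested, and a gene was called higher or lower at an adjusted p under 0.05. Signals were scaled per array, so a fall is relative to the other signals of the array. In whole embryos, fewer cells of a type and less RNA per cell cannot be told apart. Probe sets differ in efficiency, so levels of different genes are not set against each other.

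The arrays of a stage correlated at 0.982 to 0.988 for blastocysts and 0.977 to 0.981 for 8-cell embryos, and arrays of different stages at 0.752 to 0.78. Trophectoderm markers summed to signals of 76569 to 86312 in blastocysts and 3043 to 3534 in 8-cell embryos, with 7 of 7 markers higher, and oocyte markers to 278 to 369 in blastocysts and 4261 to 7068 in 8-cell embryos, with 7 of 7 lower. Of the primitive endoderm markers 5 of 7 were higher and 2 lower, and of the epiblast markers 4 of 7 were higher and 3 lower. Their sums were 31260 to 38999 and 15464 to 18028 in blastocysts, against 10330 to 13559 and 15720 to 18332 in 8-cell embryos. Markers of cumulus, blood and fibroblast cells summed to 191 to 436 over the blastocyst arrays and 136 to 353 over the 8-cell arrays, and of those tested 0 of 2, 1 of 3 and 2 of 3 were higher and 1, 1 and 0 lower. On all blastocyst arrays 1, 2 and 2 of these markers lay above the 40th percentile, and Amh and Col3a1 lay under it on all 8 arrays. For Actb the 3' minus 5' control difference was 0.82 ± 0.11 log2 units in blastocysts and 2.42 ± 0.19 in 8-cell embryos, and for Gapdh 1.36 ± 0.11 and 2.32 ± 0.26 (SD, n = 4 each). The part of these end differences, and of the changed cell composition, in the Mediator results was not tested. All values of the 8-cell arrays carry at most 1 decimal, against 0.297 to 0.375% of the values of the blastocyst arrays, so any difference in handling cannot be told apart from the stage.

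Most Mediator genes had lower signals in blastocysts. Of the 33 members 8 were higher and 21 lower, and 4 did not pass, where 37.5% of all tested genes were higher and 34.2% lower. The share of members called in either direction was 87.9%, against 71.7% of all tested genes. The median difference was -0.63 over the members and 0.02 over all tested genes. A fall of at least 2-fold was found for 12 members (20.4% of all tested genes) and a rise of that size for 2 (25.4%), Med30 and Med12l. In 26 of the 33 members the 4 arrays of one stage lay entirely beyond those of the other, against 66.8% of all tested genes. With the arrays scaled to the bacterial spike-ins, 8 members were higher and 14 lower, against 5404 and 3253 of all 13274 tested genes. With a wider set of spike-ins 9 members were higher and 12 lower, against 5614 and 2993. Among called members 36.4% and 42.9% were higher under these scalings, against 62.4% and 65.2% among all called genes. Those scalings moved the median of all tested genes to 0.26 and 0.33, and the members' median minus it was -0.62 in each, against -0.65 on the deposited scale.

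**Figure D1:**
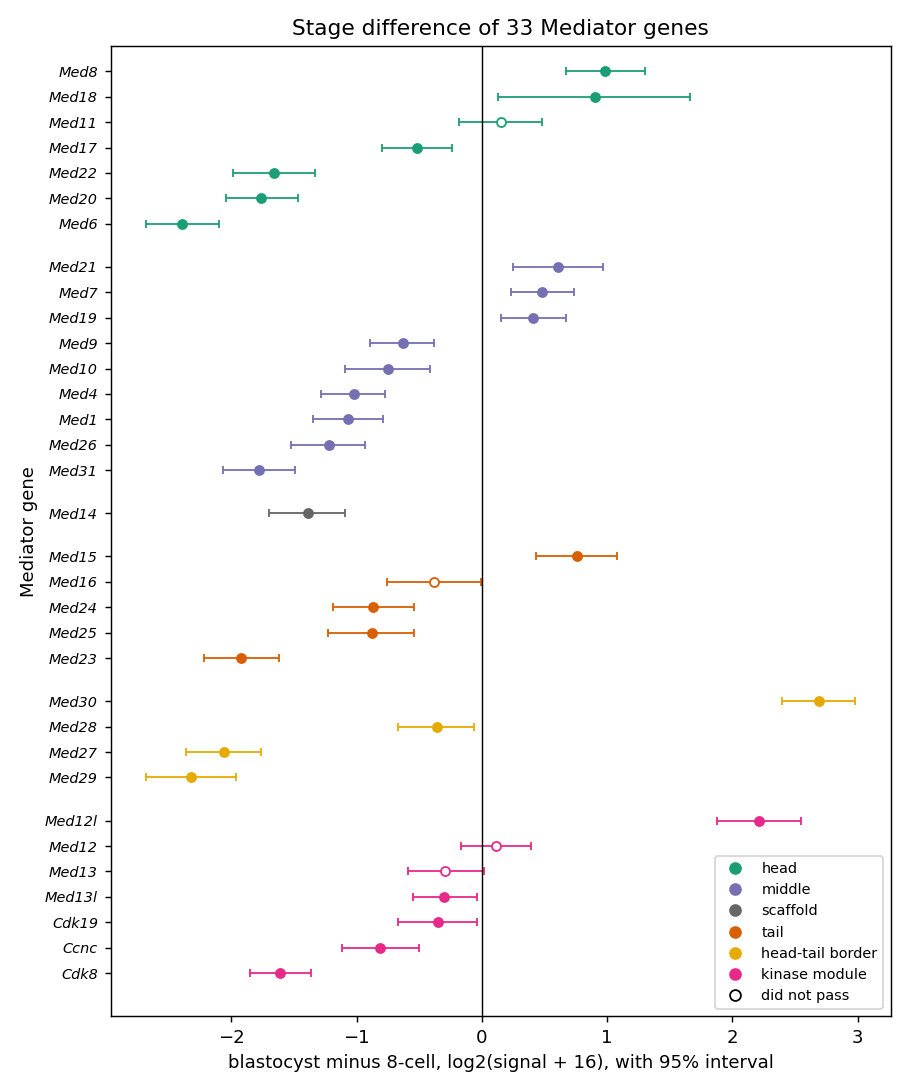
Blastocyst minus 8-cell difference of each of the 33 Mediator genes on the log2(signal + 16) scale, in rows by structural module, with the 95% interval from limma; open circles did not pass an adjusted p of 0.05. Med30 (2.69) and Med12l (2.21) stand at the right, and Med6 (-2.39), Med29 (-2.32) and Med27 (-2.06) at the left.

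The head module, which grips the polymerase, had 2 genes higher, 4 lower and 1 that did not pass. These were 28.6% higher and 57.1% lower, against 37.5% and 34.2% of all tested genes. Med6, a head subunit at the joint with the middle, gave 420, 502, 489 and 389 in the 4 blastocyst arrays, against 2624, 2193, 2572 and 2315 in the 8-cell arrays. Every blastocyst array lay below every 8-cell array, and the gene was 5.25-fold lower (-2.39, SE 0.13, adjusted p = 2.3e-07). This was the lowest difference of the members on their brightest probe sets. The ID of this Med6 probe set marks possible sharing between genes. Without probe sets so marked Med6 still fell, by 1.43 (limma, adjusted p = 0.000371), and Med29 lay lower, at -2.32. Med20 gave 4197, 3501, 3856 and 4405 in blastocysts and 13670, 13633, 15010 and 11725 in 8-cell embryos. The stages did not overlap, and Med20 was 3.38-fold lower (-1.76, SE 0.13, adjusted p = 1.44e-06). Med22 fell by 1.66 (SE 0.15). Med17, the central subunit of the head, fell by 0.52 (SE 0.12), but gave -0.25 (adjusted p = 0.319) with spike-in scaling and -0.27 (adjusted p = 0.124) with its probe sets averaged (adjusted p over its alternatives, 0.000427 to 0.543). Med11, which pairs with MED22 in the yeast complex, had 632 ± 98.2 in blastocysts and 564 ± 52.2 in 8-cell embryos (SD, n = 4 each). It did not pass (0.15, 95% interval -0.18 to 0.48, adjusted p = 0.374).

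Med8 and Med18 were the higher head genes. Med8 gave 5421, 5376, 4708 and 5446 in blastocysts and 3254, 2564, 2625 and 2211 in 8-cell embryos. The stages were apart, with a 1.98-fold rise (0.98, SE 0.14, adjusted p = 0.000141). Med18, whose product pairs with MED20 in yeast, gave 432, 578, 722 and 1326 in blastocysts and 300, 266, 540 and 428 in 8-cell embryos. The stages overlapped, with the 4th blastocyst array far above the rest. Med18 passed (0.90, SE 0.34, adjusted p = 0.0375), but without that array it gave 0.59 (adjusted p = 0.0797; range over its alternatives 0.00483 to 0.126).

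The middle module, which reaches from the head to the scaffold, had 3 genes higher and 6 lower. These were 33.3% higher and 66.7% lower, against 37.5% and 34.2% of all tested genes. The stages did not overlap in any of the 9, against 66.8% of all tested genes without overlap. Med31 gave 1368, 1248, 1172 and 1049 in blastocysts and 3907, 3921, 4199 and 4717 in 8-cell embryos. Every blastocyst array was lower, and Med31 was 3.43-fold lower (-1.78, SE 0.13, adjusted p = 1.25e-06). Its binding partner in the yeast complex, Med7, was higher, at 2134 ± 153 in blastocysts and 1520 ± 113 in 8-cell embryos (SD, n = 4 each; 0.48, SE 0.11, adjusted p = 0.00359). Med21, which forms a hinge with MED7 in yeast, gave 577, 753, 626 and 675 in blastocysts and 567, 370, 378 and 406 in 8-cell embryos. The 1st 8-cell array came close to the lowest blastocyst array, without overlap, and Med21 was 1.52-fold higher (0.61, SE 0.16, adjusted p = 0.00686). Med19 rose by 0.41 (SE 0.11), in both of its tested probe sets.

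Med26, the docking subunit for elongation factors, fell by 1.22 (SE 0.13), to 785 ± 53.4 in blastocysts against 1865 ± 255 in 8-cell embryos. Med1, the main contact of nuclear receptors, gave 1815, 1591, 1798 and 1426 in blastocysts and 3616, 3722, 3454 and 3146 in 8-cell embryos. The stages were apart and Med1 was 2.10-fold lower (-1.07, SE 0.12, adjusted p = 3.59e-05). Med4 fell by 1.02 (SE 0.11). Med10 fell by 0.75 (SE 0.15), but gave -0.49 with spike-in scaling (adjusted p = 0.0613, range over its alternatives 2.91e-05 to 0.142). Med9 gave 1648, 1597, 1419 and 1624 in blastocysts and 2509, 2526, 2552 and 2196 in 8-cell embryos. All blastocyst arrays lay below the 8-cell arrays on this probe set (-0.63, SE 0.11, adjusted p = 0.000632), although another probe set of Med9 went the other way. With spike-in scaling Med9 gave -0.37 (limma, adjusted p = 0.109, range over its alternatives 3.99e-05 to 0.266). The scaffold gene Med14 was at 1139 ± 181 in blastocysts and 2997 ± 167 in 8-cell embryos, 2.63-fold lower (-1.39, SE 0.14, adjusted p = 1.06e-05).

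The tail had 1 gene higher (20%, against 37.5% of all tested genes), 3 lower (60%, against 34.2%) and 1 that did not pass. Med15, the contact of SREBP and SMAD factors, was the higher one, with 1174, 893, 843 and 862 in blastocysts and 511, 542, 506 and 638 in 8-cell embryos. The stages did not overlap (0.76, SE 0.14, adjusted p = 0.001). Med23, the contact of the ETS factor ELK1, gave 772, 836, 938 and 693 in blastocysts and 3182, 3197, 2691 and 3307 in 8-cell embryos. It was lower on every blastocyst array, 3.78-fold on average (-1.92, SE 0.13, adjusted p = 1.04e-06). Med24 fell by 0.87 (SE 0.14), but gave -0.60 with spike-in scaling (adjusted p = 0.0508, range over its alternatives 3.88e-05 to 0.0973). Med25, which encodes the target of the viral activator VP16, fell by 0.88 (SE 0.15), but gave -0.53 with the wider set of spike-ins (limma, adjusted p = 0.0572). Med16 was at 801 ± 95.6 in blastocysts and 1063 ± 229 in 8-cell embryos and did not pass (-0.38, 95% interval -0.76 to -0.01, adjusted p = 0.0598).

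MED27, MED28, MED29 and MED30 lie where head and tail meet, and different accounts assign them to either. Their genes held both the highest difference of the members and 2 of the 3 lowest. Med30, a subunit found in animals and not in budding yeast, gave 3328, 3523, 2971 and 3240 in blastocysts and 585, 505, 439 and 452 in 8-cell embryos. The stages were far apart, with a 6.45-fold rise (2.69, SE 0.13, adjusted p = 1.23e-07). Med29, the relative of the fly gene intersex, gave 498, 587, 484 and 355 in blastocysts and 2202, 2601, 2481 and 2450 in 8-cell embryos. Med27 gave 418, 376, 427 and 532 in blastocysts and 1771, 1770, 1897 and 2046 in 8-cell embryos. In both genes every blastocyst array lay below every 8-cell array, by 4.99-fold for Med29 (-2.32, SE 0.16, adjusted p = 9.36e-07) and 4.18-fold for Med27 (-2.06, SE 0.13, adjusted p = 6.61e-07). Med28 passed with overlapping stages (-0.36, SE 0.13, adjusted p = 0.0334), and it lost the call in 12 of 21 alternative settings.

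**Figure D2:**
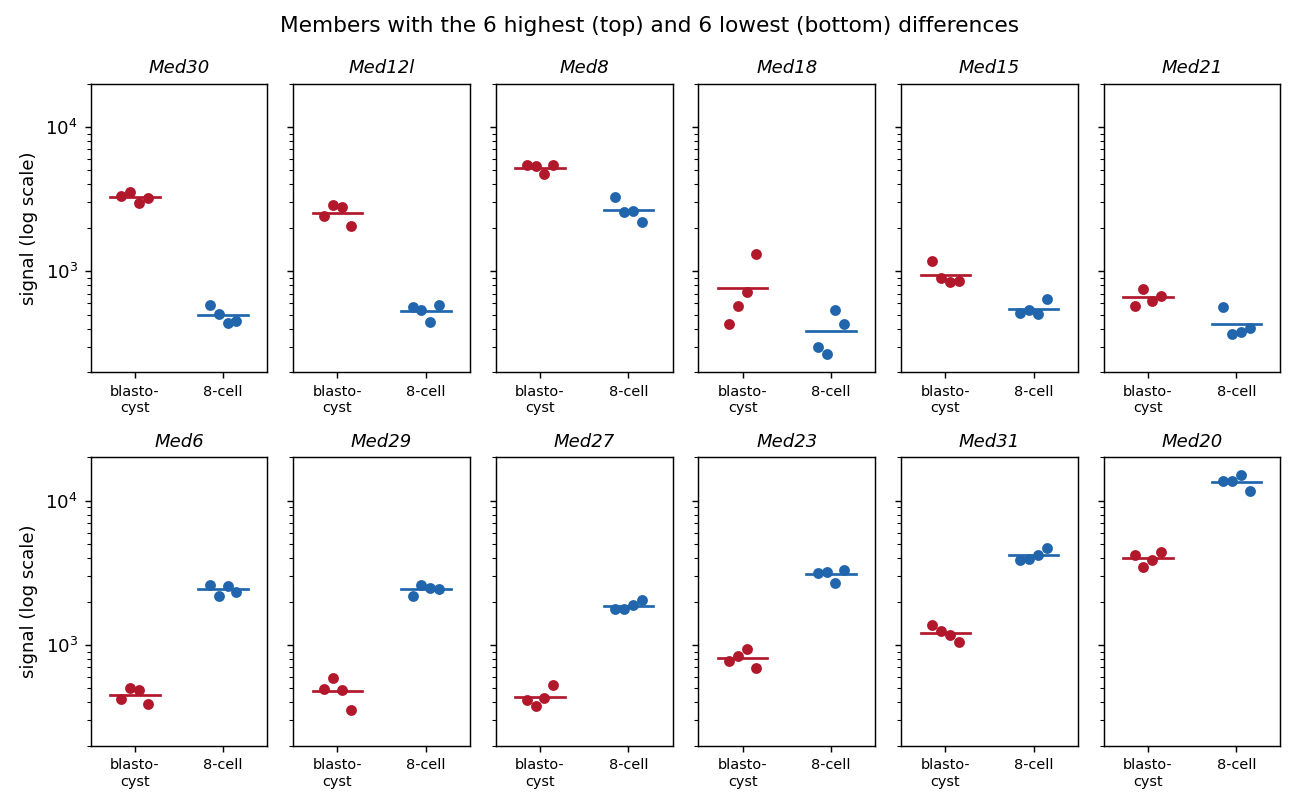
Signal on each array (log axis) of the 6 members with the highest differences, top row, and the 6 with the lowest, bottom row; points are the 4 arrays of a stage and lines their mean, with blastocysts at the left of each panel. Only Med18 has overlapping stages among the 12 genes, and Med30 averages 3265 in blastocysts and 495 in 8-cell embryos.

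The kinase module had 1 gene higher (14.3%, against 37.5% of all tested genes), 4 lower (57.1%, against 34.2%) and 2 that did not pass. It had 71.4% of its genes called, near the 71.7% of all tested genes. Its catalytic subunit gene Cdk8 gave 2468, 2563, 2623 and 2552 in blastocysts and 7011, 7683, 8219 and 8354 in 8-cell embryos. The blastocyst arrays were close together and all below the 8-cell arrays, and Cdk8 was 3.04-fold lower (-1.61, SE 0.11, adjusted p = 8.82e-07). Its paralog Cdk19 gave 670, 684, 756 and 769 in blastocysts and 953, 1056, 995 and 724 in 8-cell embryos. The stages overlapped through the 4th 8-cell array, and the small fall (-0.35, SE 0.14, adjusted p = 0.0464) lost its call in 13 of 21 alternative settings. The cyclin gene Ccnc gave 292, 303, 380 and 272 in blastocysts and 581, 577, 590 and 476 in 8-cell embryos. It was lower without overlap, 1.75-fold (-0.81, SE 0.14, adjusted p = 0.000479). With the wider set of spike-ins Ccnc gave -0.47 and lost its call (limma, adjusted p = 0.0858).

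Med12, the subunit that activates the kinase, gave 613, 557, 624 and 665 in blastocysts and 631, 615, 498 and 535 in 8-cell embryos. The stages overlapped and it did not pass (0.11, 95% interval -0.17 to 0.39, adjusted p = 0.443). Its paralog Med12l gave 2421, 2878, 2768 and 2069 in blastocysts and 566, 536, 443 and 582 in 8-cell embryos. All blastocyst arrays were higher, with a 4.64-fold rise (2.21, SE 0.15, adjusted p = 7.99e-07). Med13, which links the kinase to the core, gave 494, 509, 660 and 590 in blastocysts and 740, 620, 649 and 742 in 8-cell embryos. The stages overlapped and it did not pass (-0.29, 95% interval -0.59 to 0.02, adjusted p = 0.0808). Its paralog Med13l gave 1970, 2007, 1779 and 2087 in blastocysts and 2514, 2122, 2485 and 2526 in 8-cell embryos. These did not overlap, though the 2nd 8-cell array was close to the blastocysts, and Med13l passed narrowly (-0.30, SE 0.12, adjusted p = 0.0424) and lost the call or its direction in 12 of 21 alternative settings.

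**Figure D3:**
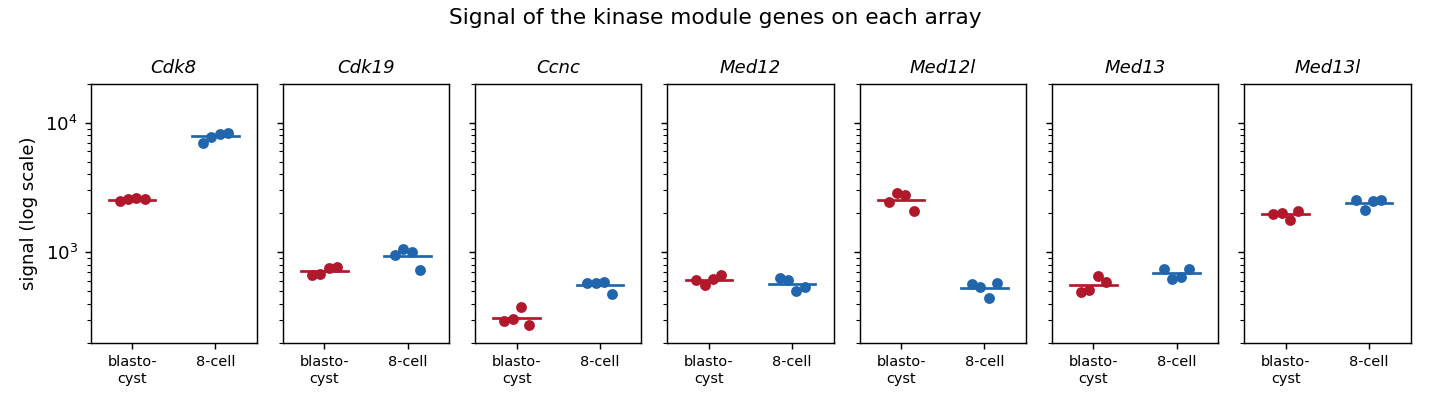
Signal on each array (log axis) of the 7 kinase module genes, with the 4 blastocyst arrays at the left of each panel and the 4 8-cell arrays at the right, and lines at the means. Cdk8 averages 2552 in blastocysts and 7817 in 8-cell embryos, Med12l 2534 and 532, and Med12 615 and 570.

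Whether the paralogs of a position changed unequally was tested on the within-array log2 difference between them, by a two-sided exact permutation test over the 70 assignments of the arrays, for 3 pairs. The difference between Med12l and Med12 shifted by 2.10 toward Med12l in blastocysts (exact p = 0.0286, adjusted p = 0.0429 over the pairs). That between Cdk19 and Cdk8 shifted by 1.25 toward Cdk19 (exact p = 0.0286, adjusted p = 0.0429). In both pairs the 4 arrays of each stage were separate, and 0.0286 is the smallest p that 4 against 4 arrays can give. The 2nd shift was a smaller fall of Cdk19 and not a rise. The difference between Med13l and Med13 moved by -0.01 (exact p = 1), with overlapping stages. With a gene's probe sets averaged, the shifts were 0.59 for Med12l over Med12, 0.83 for Cdk19 over Cdk8 and 0.61 for Med13l over Med13 (exact permutation tests, adjusted p = 0.0286 each). These averages took in probe sets that did not pass the filter. For Med12l that was a dim one, at 36.1 ± 15.8 in blastocysts and 5.78 ± 2.46 in 8-cell embryos (SD, n = 4 each). It added to the Med12l shift, while the other tested Med12l probe set fell (-1.32).

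Several members had probe sets that disagreed. Of the 72 probe sets 67 passed the filter, and these were tested with limma among all 23724 probe sets past it, of which 68.9% were called. Among the 18 members with several tested probe sets, 3 had all of them higher, 6 had all lower, 5 were called in 1 direction with others that did not pass, and 4 were called in opposite directions. Opposite calls were found for 11.8% of all 6004 such genes. The 4 members were Med12l, Ccnc, Med1 and Med9. The brightest probe set of Med12l rose, as above, while another fell (-1.32, SE 0.28, adjusted p = 0.00205), with 120, 206, 288 and 226 in the blastocyst arrays and 559, 728, 340 and 556 in the 8-cell arrays. All 4 blastocyst arrays of that probe set lay below the 8-cell arrays, so the rise of Med12l was read on 1 of its 2 tested probe sets.
 For Med9 the dimmer probe set gave 514, 532, 553 and 554 in blastocysts and 289, 230, 294 and 319 in 8-cell embryos, a rise (0.90, SE 0.13, adjusted p = 0.000181). As for Med12l, both tested Med9 probe sets separated the stages, in opposite directions, and the counts of members rest on the brightest one for both genes. For Med1, 5 of 7 probe sets fell (-1.86 to -0.95), 1 did not pass and 1 rose (0.90, SE 0.21), the riser with 224 ± 72.1 in blastocysts and 109 ± 16.5 in 8-cell embryos. The Med1 probe sets at -1.86 and -1.75 were dimmer than the riser in blastocysts, at 36.5 ± 28.1 and 21.7 ± 6.16. In 8-cell embryos they had 158 ± 8.96 and 110 ± 9.44. Each lay above the 40th percentile on 5 arrays, and their IDs mark possible sharing between transcripts or genes. For Ccnc 2 of 5 fell (-0.81 and -2.63), 2 did not pass, and 1 at the low end of the array rose (0.87, SE 0.16), with 60.2 ± 4.19 in blastocysts and 26.2 ± 8.18 in 8-cell embryos. That Ccnc riser passed the filter only through the blastocyst arrays, where it was higher. Ccnc is among the 4 members with opposite calls through it alone. Med14 fell in all 5 probe sets (-4.44 to -0.57), Med29 in all 3 (-3.06 to -1.31), Med6 in all 3 (-2.39 to -0.83), and Med20 in both (-1.76 and -1.43). The Med14 probe set at -4.44 was dim in blastocysts, at 33.4 ± 20.1 against 998 ± 237 in 8-cell embryos. The size of that fall depends on the added constant. The Med6 probe set at -0.83 had 18.8 ± 6.23 in blastocysts and 45.6 ± 8.74 in 8-cell embryos. It passed the filter only through the 8-cell arrays, where it was higher. Med8 and Med15 rose in both tested probe sets, by 0.98 and 1.65 and by 0.76 and 1.71. The brightest probe sets of Cdk19 and Med13l did not pass among all probe sets (adjusted p = 0.0557 and 0.0564), where another of Cdk19 fell by 1.20 (SE 0.22) and another of Med13l rose by 0.97 (SE 0.21). Of the 4 tested probe sets of Med13, 2 were lower with the stages apart (-0.63, adjusted p = 0.00664, and -1.26, adjusted p = 0.00022) and the brightest and 1 other did not pass. Med30, Cdk8, Med23, Med27, Med31 and Med22 had 1 probe set each.

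**Figure D4:**
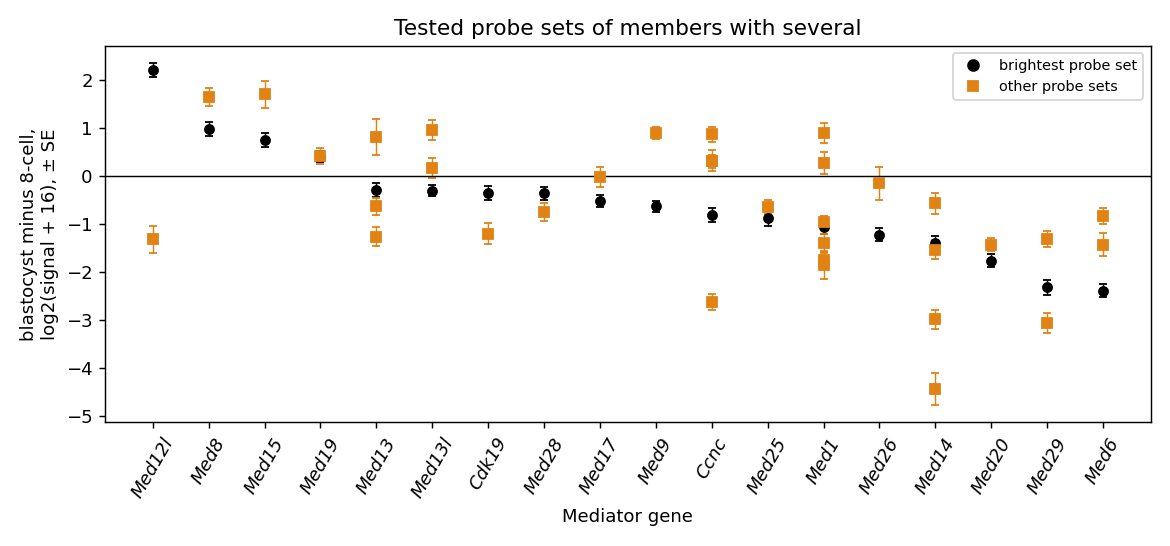
Blastocyst minus 8-cell difference on the log2(signal + 16) scale, with the SE, of each tested probe set of the 18 members that had several; black circles are the brightest probe set of a gene and orange squares its others. Med12l (2.21 and -1.32) and Med9 (-0.63 and 0.90) have probe sets on both sides of 0, and all 5 of Med14 lie below it.

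Promoters of the members were read from RefSeq windows (GRCm38.p6) that run from 250 bases before to 50 after a gene's start. Of the 33 members 28 had a window, and Cdk19, Med8, Med23, Med24 and Med30 had none. The series is about the transcription factor AP-2 gamma (Tfap2c), so the AP-2 letters GCCNNNGGC were searched on both strands. They were in windows of 5 of 28 members (17.9%), against 18.5% of all 27025 genes with a window. The 5 were Med9, Med13l, Med20 and Med29, called lower on their brightest probe sets, and Med13, which did not pass. That made 4 of the 18 lower and 0 of the 6 higher members with a window. Whether these small groups differ was not tested. The call of Med13l was lost in several settings, and another probe set of Med9 rose. The ETS letters CCGGAAGT were in 3 of 28 (10.7%, against 4.31% of genes), the E-box CACGTG in 4 (14.3% and 8.09%), CCAAT in 11 (39.3% and 41.1%), GGGGCGGGG in 3 (10.7% and 12.9%), GCGCATGCG in 2 (7.14% and 1.95%), AAGATGGCG in 0 (1.64% of genes) and TATAAA in 3 (10.7% and 15.7%). A match of letters is a description and not a bound site. The median GC content of the members' 32 windows was 57.9%, against 52.7% for all windows.

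The windows shown are those of Med12l, the higher member with the largest difference that has one, and those of Med20 and Med29, the members with the lowest differences among those with the AP-2 letters, which are in capitals. The Med12l window is chr3:59006728-59007027 on the plus strand, that of Med20 chr17:47611335-47611634 on the plus strand and that of Med29 chr7:28392641-28392940 on the minus strand, each written 5′ to 3′ along the gene. In Med20 the match lies before the gene's start and in Med29 after it, and the Med12l window holds none.
Med12l: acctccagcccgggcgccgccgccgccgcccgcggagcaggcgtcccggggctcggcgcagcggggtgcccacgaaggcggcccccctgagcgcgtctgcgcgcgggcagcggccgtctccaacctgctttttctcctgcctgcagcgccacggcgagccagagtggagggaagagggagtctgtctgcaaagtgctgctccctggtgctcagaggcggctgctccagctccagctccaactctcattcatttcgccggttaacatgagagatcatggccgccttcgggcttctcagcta
Med20: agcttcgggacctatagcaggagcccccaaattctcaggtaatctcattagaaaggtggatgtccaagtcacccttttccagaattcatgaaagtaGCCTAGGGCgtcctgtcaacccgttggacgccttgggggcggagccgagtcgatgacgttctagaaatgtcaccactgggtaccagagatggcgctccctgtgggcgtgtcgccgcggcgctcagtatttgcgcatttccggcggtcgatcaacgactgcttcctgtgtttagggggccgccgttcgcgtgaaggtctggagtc
Med29: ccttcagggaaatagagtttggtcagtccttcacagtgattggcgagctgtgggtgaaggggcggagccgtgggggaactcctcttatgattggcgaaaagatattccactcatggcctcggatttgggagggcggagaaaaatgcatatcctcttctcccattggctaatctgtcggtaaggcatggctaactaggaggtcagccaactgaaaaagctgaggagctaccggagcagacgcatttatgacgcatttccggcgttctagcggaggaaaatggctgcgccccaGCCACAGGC

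Genes that work with Mediator were counted from lists of partners, against 37.5% of all tested genes higher and 34.2% lower. Cohesin and its loader, which hold enhancer and promoter together with Mediator, had 2 of 10 genes higher (20%) and 6 lower (60%; median -0.55). The loader genes fell most, with Mau2 at 117 ± 16.8 in blastocysts and 1086 ± 245 in 8-cell embryos (-3.04, SE 0.17, adjusted p = 2.92e-07) and Nipbl at 1239 ± 137 and 3987 ± 193 (-1.68, SE 0.12, adjusted p = 1.21e-06). The cohesin release factor gene Wapl fell by 1.24 (SE 0.11). Of the elongation factors 2 of 13 were higher (15.4%) and 6 lower (46.2%; median -0.34). Ell2, a subunit of the super elongation complex that docks on MED26, fell by 3.16 (SE 0.14), to 809 ± 124 in blastocysts against 7305 ± 700 in 8-cell embryos. Mllt3 and Supt5 were lower too (-1.53, SE 0.15, and -1.37, SE 0.12). Ell3 and Supt4a of this list were not analysed here.

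The other kinases and cyclins of transcription had 2 of 9 genes higher (22.2%) and 5 lower (55.6%; median -0.45). Ccnt1, a cyclin of the elongation kinase CDK9, fell by 1.79 (SE 0.14), Cdk12 by 1.24 (SE 0.11) and Cdk7 by 0.72 (SE 0.12). Cdk9 itself was at 2879 ± 237 in blastocysts and 3953 ± 612 in 8-cell embryos (-0.45, SE 0.14, adjusted p = 0.0161). Of the tested RNA polymerase II subunits 3 of 11 were higher (27.3%) and 7 lower (63.6%; median -0.79), with Polr2g higher (1.69, SE 0.15) and Polr2h (-1.37, SE 0.11) and Polr2j (-1.30, SE 0.11) lower. Under both spike-in scalings the lower genes numbered 3 for cohesin, 3 for elongation factors and 2 for the kinases. For the polymerase they numbered 7 with the smaller and 5 with the wider set of spike-ins. Of all 13274 tested genes, 3253 were lower with the smaller and 2993 with the wider set, against 4539 on the deposited scale. Without probe sets whose IDs mark possible sharing between transcripts or genes, 1 polymerase gene was higher and 5 lower. In that setting 2 kinases and cyclins were higher and 3 lower, and of all 11624 genes tested there 4303 were higher and 3896 lower. With probe sets averaged, 0 elongation factors were higher and 6 lower, against 4725 and 4439 of all 13274 tested genes.

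Activators known to bind a Mediator subunit had 9 of 21 tested genes higher (42.9%) and 8 lower (38.1%; median 0.30), shares near those of all tested genes. Without probe sets whose IDs mark possible sharing, 5 were higher and 8 lower, against 4303 and 3896 of all 11624 genes tested there. Gata1, a reported partner of MED1, fell by 3.52 (SE 0.19), to 296 ± 73.9 in blastocysts against 3536 ± 589 in 8-cell embryos. The nuclear receptor genes Hnf4a and Thra rose by 3.21 (SE 0.21) and 3.06 (SE 0.43). Hnf4a was at 311 ± 64 in blastocysts and 19.7 ± 9.09 in 8-cell embryos, and Thra at 674 ± 79.6 and 81 ± 55.2. The 8-cell mean of Hnf4a lay under the 40th percentile of those arrays (31.9 to 35.7). The size of its difference therefore depends on the added constant. The ID of the Hnf4a probe set also marks possible sharing. Of 6 tested regulators and substrates of the kinase module 2 were higher (33.3%) and 3 lower (50%). Under both spike-in scalings 1 was lower, where 3253 and 2993 of all 13274 tested genes were lower. Fbxw7, the ubiquitin ligase subunit that marks MED13 for degradation, was at 628 ± 111 in blastocysts and 62 ± 18.7 in 8-cell embryos (3.06, SE 0.20, adjusted p = 6.34e-07). Stat3, a substrate reported for CDK8, was at 3825 ± 439 and 334 ± 50 (3.46, SE 0.15, adjusted p = 6.72e-08). Rest, a repressor that reaches MED12 through its partners, fell by 2.11 (SE 0.14).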

How the data were processed

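The 8 arrays hold biotin-labelled cRNA amplified from whole embryos, per the labels' protocols. The authors deposited 1 table of linear signal intensity for 45101 probe sets, with the same trimmed mean of 500 (2% trimmed at each end) on every array; no source used here names the software that made the intensity values. Of the probe sets, 34945 have 1 gene symbol in the platform annotation, 932 several and 9160 none, and 64 are controls. Log2(signal + 16) was computed, the probe set of highest mean was kept per gene, and genes above an array's 40th percentile on at least 4 arrays were tested with limma 3.58.1 in R 4.3.3, with Benjamini-Hochberg adjustment. The fit was tested on simulated data. Figures were drawn with matplotlib 3.10.9 in Python 3.11.15. With 4 arrays a stage, the number of arrays limits the precision.

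The members and gene lists were chosen with earlier results of these data known. Every member is named. Values per array are given for the kinase module, the 6 highest and 6 lowest called differences and members with opposing probe sets, and each partner list gives its 3 largest called differences, with Nipbl and Cdk9 always; 1 further listed gene is not reported here. Same-numbered arrays did not deviate together (correlations of -0.0354 to -0.0242), so the numbers were not taken as pairs. Alternatives covered array scaling, the filter, the probe set per gene, the added constant, limma settings, a replicate block and leaving out each array. Spike-in scaling with 18 probe sets was added after seeing the data.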

Additional observations from a re-analysis of the deposited data

Results flagged for a closer look

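For each member and stage, 66 groups of 4 arrays in all, the gap between the most distant array and its nearest neighbour was divided by the group's range, both on the log2(signal + 16) scale. It was above Dixon's critical value for 4 samples in 7 groups, where chance gives about 1 in 20 groups. Signals are given on the linear scale, on which the ratio for Med19 lies below the critical value. The 1st blastocyst array lay lowest for Med24 (signal 560, the others 630 to 637, log2 gap 0.9081 of the range), and the 3rd for Med8 (4708, the others 5376 to 5446, gap 0.9120). The 2nd 8-cell array lay lowest for Med13l (2122, the others 2485 to 2526, gap 0.9070) and Med4 (2141, the others 2406 to 2457, gap 0.8497). The 4th 8-cell array lay lowest for Ccnc (476, the others 577 to 590, gap 0.8934), Med9 (2196, the others 2509 to 2552, gap 0.8869) and Med19 (1135, the others 1276 to 1307, gap 0.8293).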

How the results depend on the processing

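Over 21 alternative settings, 18 of the 29 called members kept their call and direction wherever they were tested: Cdk8, Med1, Med4, Med6, Med7, Med8, Med12l, Med14, Med15, Med19, Med20, Med22, Med23, Med26, Med27, Med29, Med30 and Med31. Of these, Med22 and Med27 were not tested without probe sets whose IDs mark possible sharing. In that setting 29 members were tested, with 7 higher and 17 lower, against 4303 and 3896 of all 11624 genes tested there. No setting read Med12l on its opposing probe set alone. Calls were lost most often for Cdk19 (13 settings), Med28 (12), Med13l (10, besides 2 reversals) and Med18 (8). With 18 spike-in probe sets, 2993 genes and 12 members were lower, Med13 and Med13l turned to 0.06 each, and the share of higher genes among all called was 65.2%, against 52.3% with the scale as deposited. With quantile normalization Med11 turned to -0.11 and Med12 to -0.15, neither called, and Med13 (-0.53) and Med16 (-0.57) became lower calls. Calls were gained in 6 settings for Med16, 2 for Med13 and 1 for Med11. With a gene's probe sets averaged, Med13l turned to 0.28 and Med9 to 0.13, and the Med13l minus Med13 shift became 0.61. Leaving out 1 array gave 7 to 8 members higher and 18 to 20 lower, with 4783 to 4880 and 4331 to 4507 of all tested genes. The pair shifts were then 1.10 to 1.32 for Cdk19 minus Cdk8, 1.99 to 2.24 for Med12l minus Med12 and -0.07 to 0.11 for Med13l minus Med13. With the replicate block 8 members were higher and 18 lower, with 4862 and 4412 of all genes; Cdk19, Med13l and Med28 lost their calls. The cause of these changes was not tested.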
